A study of Mus musculus with 31 samples.

Results

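RNA of 7 genes of mouse chromosome 4 was followed in the gastrocnemius, the large calf muscle, of animals with and without MuRF1: Zfp992, Zfp984, Fbxo44, Fbxo6, Rbp7, Angptl7 and Hyi. MuRF1 is the muscle RING-finger ubiquitin ligase, a protein that marks others for breakdown during muscle wasting, and its gene, Trim63, lies on the same chromosome. The 7 genes were chosen by the measured difference of their RNA between knockout (KO) and wild-type (WT) muscle and by lying 10 to 25 Mb from Trim63. The KO difference therefore chose them, and it is described here without a test. Statements that the genotypes did or did not overlap describe the chosen genes in the same way. The share of all genes separated so was not counted. They are 7 of 39017 genes in the count files and 7 of the 243 genes at that distance that had enough reads to be tested, and all 7 passed the filter on low counts.

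The libraries came from 8 groups of mice: female KO and WT on a high fat diet (HFD), female KO and WT on chow, male KO and WT on HFD, and male KO and WT on chow. Every animal ate chow after weaning, the HFD groups were switched at 8 weeks of age to a diet with 45% fat from lard, and all muscles were taken at 30 weeks. The labels call the KO mice only MuRF1 knockout, with no strain and no account of how the allele was made. KO groups had 4 libraries on chow and 3 on HFD in each sex, and WT groups had 4 each, giving 14 KO and 16 WT libraries, each from a different animal. Levels are in CPM, a gene's count divided by the total count of its library and scaled to a total common to all libraries; log2 differences are from edgeR fits that also scale the totals by TMM (trimmed mean of M-values) factors.

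The title and the description of a library record did not always name the same animal. In 19 of 31 records the animal number of the title differed from that of the description, and each library was placed in the group of the title that carries its described animal. Of the 30 libraries placed this way, 4 have an own title of another group (male KO HFD 3, female WT chow 4, female KO chow 4 and female WT HFD 4), and 1 library, whose described animal is in no title, was left without a group. Trim63 lay at 0.469 to 6.24 CPM in KO libraries, against 183 to 254 CPM in 13 WT libraries and 109 to 130 CPM in the other 3 (male WT chow 3, female WT chow 1 and female WT HFD 4). The library with no group had 107 CPM. Ddx3y and Xist separated the sexes without exception: Ddx3y was at 0 to 0.757 CPM in females and 30.3 to 55.8 CPM in males. Muscle genes such as Myh4 (44900 to 74900 CPM) and Acta1 (25700 to 45600 CPM) were abundant in every library, and total counts ran from 9342028 to 14919379, so that 3 counts were worth 0.201 to 0.321 CPM.

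The genes belong to unrelated families. Zfp992 and Zfp984 are members of a large cluster of zinc finger genes on distal chromosome 4; proteins of the KRAB zinc finger family bind DNA and recruit the corepressor Trim28. Fbxo44 and Fbxo6 are neighbours that encode F-box proteins, the parts of SCF ubiquitin ligases that hold the substrate, and both belong to the FBA group, of which Fbxo6 binds glycoproteins with N-linked sugars. Rbp7 encodes a cellular retinol-binding protein of the fatty acid binding protein superfamily. Angptl7 encodes a secreted protein related to the angiopoietins, and Hyi a putative hydroxypyruvate isomerase named after the bacterial enzyme.

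In GENCODE M21 (build mm10) Trim63 lies at chr4:134315120-134329629. Of the genes, 6 lie on its higher-coordinate side in a stretch of 3.01 Mb, 12.12 to 15.12 Mb from Trim63: Zfp992 at chr4:146449023-146470292, Zfp984 at chr4:147753974-147809788, Fbxo6 at chr4:148145716-148152140, Fbxo44 at chr4:148152800-148160482, Angptl7 at chr4:148495183-148500460 and Rbp7 at chr4:149449687-149454978. Hyi, at chr4:118359990-118362744, lies 15.95 Mb away on the other side, and the annotation calls it a polymorphic pseudogene. Fbxo6 and Fbxo44 are on the same strand and 659 bases apart. Angptl7 lies inside Mtor on the opposite strand, and Zfp984 overlaps the untested same-strand gene Gm20707. These are overlaps of whole gene spans, and overlap of exons was not examined. No source used here says whether the authors' counting used strand, which could separate only the opposite-strand pair. Whether reads of these pairs were shared was not tested.

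**Figure D1:**
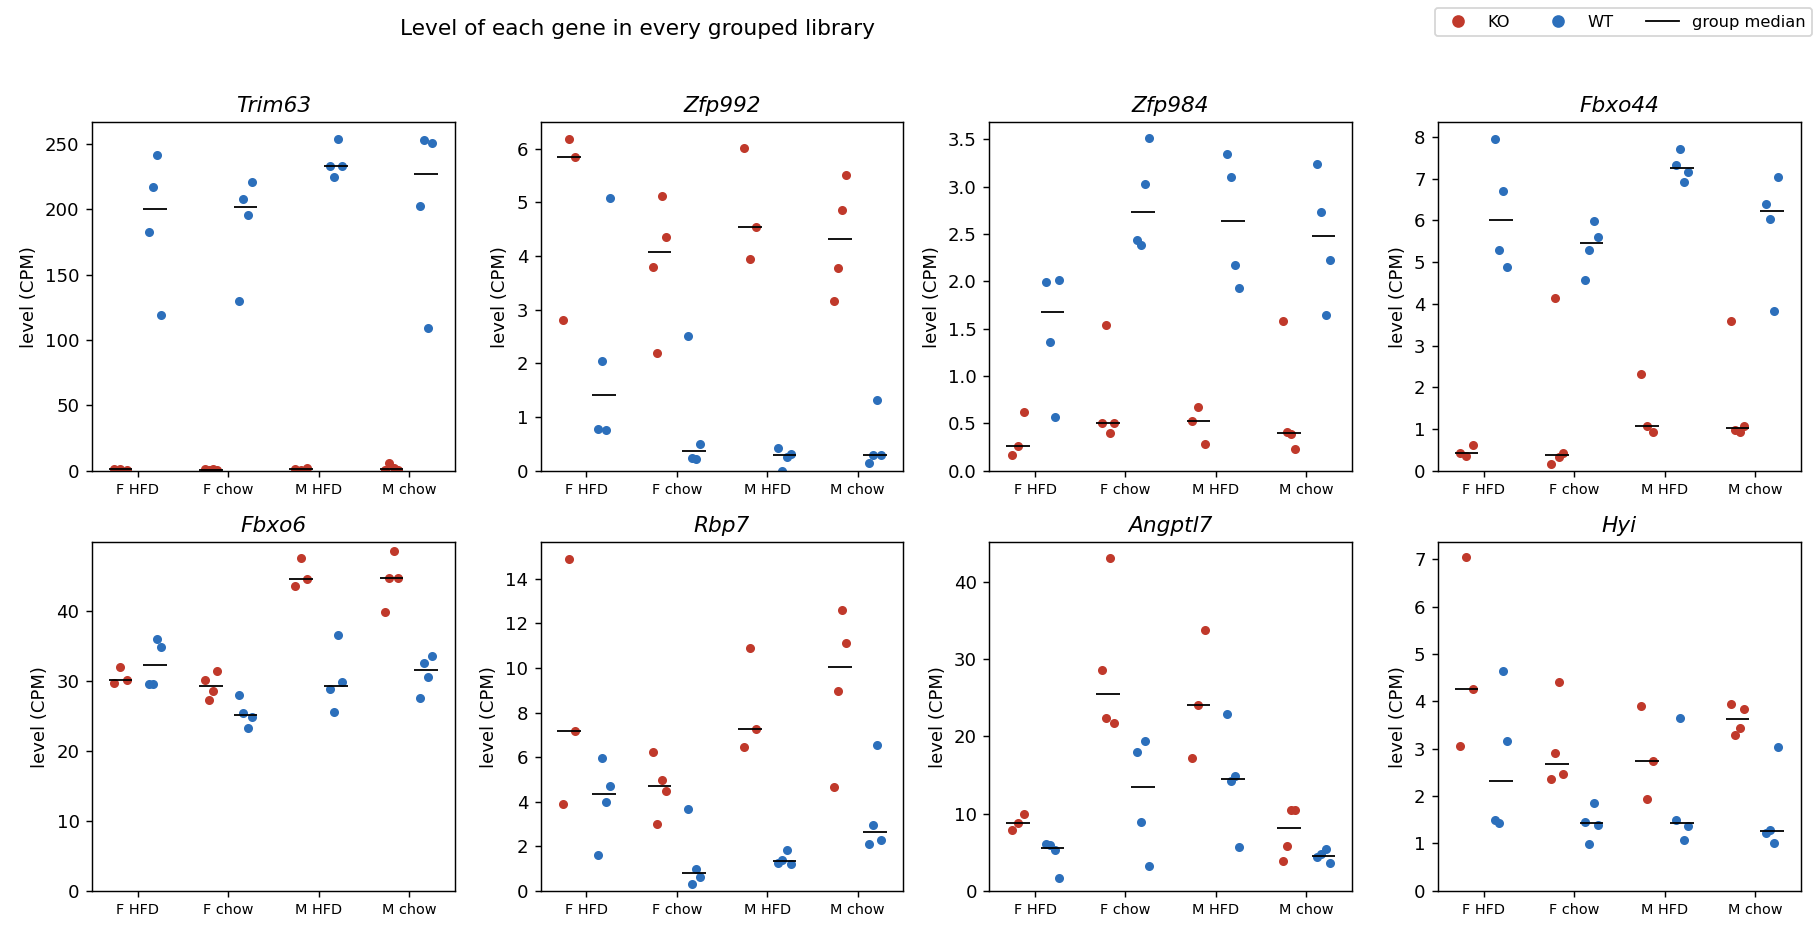
Level (CPM, linear axis from 0) of Trim63 and of the 7 genes in each of the 30 grouped libraries, with KO (red) left of WT (blue) in female (F) and male (M) mice on HFD or chow; each point is 1 library and each line a group median. Fbxo44 of KO libraries lies under that of WT libraries in every pair of groups, and Fbxo6 of male KO libraries, 39.8 to 48.5 CPM, lies above every other group.

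Zfp992 RNA was high in KO and nearly absent from most WT muscles. KO libraries had a lowest, median and highest level of 2.19, 4.44 and 6.18 CPM, against 0, 0.37 and 5.08 CPM in WT libraries. The difference was 2.69 ± 0.33 log2 units (SE, KO over WT, 14 and 16 libraries), or 6.46-fold. It rests on few WT reads, such as 0 to 5 counts in each male WT HFD library. In males the genotypes were far apart. Male KO HFD libraries had 6.01, 3.95 and 4.54 CPM, against 0.417, 0, 0.25 and 0.322 CPM in male WT HFD libraries. Male KO chow libraries had 3.16, 3.78, 4.85 and 5.51 CPM, against 0.154, 0.287, 1.32 and 0.296 CPM in male WT chow libraries. In females the genotypes overlapped. Female KO HFD libraries had 2.8, 6.18 and 5.85 CPM, against 0.782, 2.04, 0.755 and 5.08 CPM in female WT HFD libraries. Female KO chow libraries had 3.79, 2.19, 5.12 and 4.35 CPM, against 2.52, 0.23, 0.222 and 0.501 CPM in female WT chow libraries. The 3 WT libraries with Trim63 at 109 to 130 CPM had the WT values 1.32, 2.52 and 5.08 CPM, among them the highest. Without these 3 the highest WT library had 2.04 CPM, and all 14 KO libraries lay above it. The difference was then 3.53 ± 0.22 log2 units, a description only, since the highest WT values were among those left out.

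The reads of Zfp992 may be shared with near copies. Its transcript is 99.3% identical to that of Zfp991 over 2491 aligned bases, and 17.6% of its windows of 150 bases, the length of 1 read, occur there unchanged. The coding stretches of both genes, 1719 bases each, differ at 8 positions. The 120 coding bases with the most differences (positions 607 to 726 from the start codon, GENCODE M21 transcripts, chromosome 4) show how little separates the pair; capitals mark the 2 positions that differ.
Zfp992: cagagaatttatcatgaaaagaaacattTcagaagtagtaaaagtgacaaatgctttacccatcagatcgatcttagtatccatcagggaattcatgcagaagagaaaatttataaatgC
Zfp991: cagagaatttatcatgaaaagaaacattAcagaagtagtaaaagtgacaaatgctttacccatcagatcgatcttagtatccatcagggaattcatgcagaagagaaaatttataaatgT
Zfp991 was tested and not called, at -0.43 ± 0.31 log2 units (KO over WT, SE, adjusted p = 0.474, edgeR quasi-likelihood test).

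Zfp984, in the same zinc finger cluster, moved the other way. KO libraries had a lowest, median and highest level of 0.17, 0.458 and 1.58 CPM, against 0.567, 2.3 and 3.51 CPM in WT libraries. The difference was -2.02 ± 0.24 log2 units (SE). The genotypes did not overlap in 3 of 4 combinations of sex and diet, a description of a gene chosen by this difference. In female HFD mice the KO libraries had 0.17, 0.261 and 0.621 CPM, against 1.99, 1.36, 0.567 and 2.01 CPM in WT libraries. Of the KO libraries, male KO chow 1 (1.58 CPM) and female KO chow 2 (1.54 CPM) were the highest, and the next had 0.67 CPM. Zfp984 also has relatives in the cluster: its transcript is 94.9% identical to Gm13212 over 1850 bases and 89.8% identical to Zfp990 over 1852 bases.

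Fbxo44 separated the genotypes in all 4 combinations of sex and diet. KO libraries had a lowest, median and highest level of 0.168, 0.937 and 4.13 CPM, against 3.82, 6.22 and 7.96 CPM in WT libraries, a difference of -2.44 ± 0.28 log2 units (SE). Female KO HFD libraries had 0.424, 0.348 and 0.621 CPM, against 7.96, 5.3, 6.7 and 4.89 CPM in female WT HFD libraries. Female KO chow libraries had 0.168, 4.13, 0.32 and 0.435 CPM, against 4.58, 5.29, 5.99 and 5.61 CPM in female WT chow libraries. Library 2 of the female KO chow group thus stood inside the WT range, above male WT chow 3, and the other 13 of 14 KO libraries lay under every WT library. Male KO HFD libraries had 2.33, 1.07 and 0.936 CPM, against 7.34, 7.71, 6.92 and 7.17 CPM in male WT HFD libraries. Male KO chow libraries had 3.6, 0.985, 0.938 and 1.07 CPM, against 6.4, 6.03, 3.82 and 7.04 CPM in male WT chow libraries. The 2 KO libraries with high Fbxo44, male KO chow 1 and female KO chow 2, were the same 2 that had high Zfp984, while their Trim63 was at 0.965 and 0.891 CPM. Without the 3 WT libraries of low Trim63, all 14 KO libraries lay under every WT library. These 3 include male WT chow 3, the WT library with the lowest Fbxo44 (3.82 CPM), so this separation only describes the libraries kept. Beside Zfp992 and Fbxo44, the number of KO libraries beyond every WT library rose without these 3 only for Rbp7, from 7 to 9. It stayed at 10 for Zfp984, 7 for Fbxo6, 4 for Angptl7 and 1 for Hyi.

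Fbxo6 was higher in KO, and the genotypes were apart in males. Male KO HFD libraries had 43.6, 47.5 and 44.6 CPM, against 28.8, 25.6, 36.5 and 29.8 CPM in male WT HFD libraries. Male KO chow libraries had 39.8, 44.7, 48.5 and 44.7 CPM, against 27.6, 32.5, 30.5 and 33.5 CPM in male WT chow libraries. The lowest male KO library thus stood above the highest WT library of either sex. In females the ranges overlapped. Female KO HFD libraries had 29.7, 32.0 and 30.1 CPM, against 29.6, 29.6, 36.0 and 34.8 CPM in female WT HFD libraries. Female KO chow libraries had 30.1, 27.3, 28.5 and 31.4 CPM, against 28.0, 25.4, 23.2 and 24.9 CPM in female WT chow libraries. The average difference over all groups was small, 0.36 ± 0.06 log2 units (KO over WT, SE), and ran from 0.69 ± 0.11 in male chow mice to -0.04 ± 0.12 in female HFD mice.

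The promoters of the neighbours Fbxo44 and Fbxo6, whose differences had opposite signs, and of Zfp984 are shown as windows of 300 bases. They end shortly after a RefSeq start (GRCm38.p6, chromosome 4, minus strand). Among the 7 genes, the levels of Zfp984 had the highest Pearson r with those of Fbxo44 (0.85). Both genes were chosen by the genotype difference, which enters this r. The windows are chr4:148160045-148160344 for Fbxo44, chr4:148152086-148152385 for Fbxo6, which lies mostly in the gap between both genes, and chr4:147809739-147810038 for Zfp984. For genes with several starts in the table, 3 each for Fbxo44 and Fbxo6, the most upstream start was used. Capitals mark the GC box GGGCGG or CCGCCC, the CCAAT box CCAAT or ATTGG and the TATA box TATAAA or TTTATA, that is, each motif on both strands.
Fbxo44: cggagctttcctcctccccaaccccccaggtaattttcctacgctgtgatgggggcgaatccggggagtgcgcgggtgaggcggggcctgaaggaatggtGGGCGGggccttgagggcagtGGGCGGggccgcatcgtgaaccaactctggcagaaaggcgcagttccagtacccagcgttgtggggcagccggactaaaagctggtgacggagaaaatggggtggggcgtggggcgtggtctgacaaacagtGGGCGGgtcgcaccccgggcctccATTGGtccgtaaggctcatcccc
Fbxo6: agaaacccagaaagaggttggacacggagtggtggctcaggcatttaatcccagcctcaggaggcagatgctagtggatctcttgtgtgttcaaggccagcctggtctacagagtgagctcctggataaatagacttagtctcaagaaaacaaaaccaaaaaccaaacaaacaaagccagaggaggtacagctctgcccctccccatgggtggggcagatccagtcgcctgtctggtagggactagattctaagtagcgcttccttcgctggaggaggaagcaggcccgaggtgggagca
Zfp984: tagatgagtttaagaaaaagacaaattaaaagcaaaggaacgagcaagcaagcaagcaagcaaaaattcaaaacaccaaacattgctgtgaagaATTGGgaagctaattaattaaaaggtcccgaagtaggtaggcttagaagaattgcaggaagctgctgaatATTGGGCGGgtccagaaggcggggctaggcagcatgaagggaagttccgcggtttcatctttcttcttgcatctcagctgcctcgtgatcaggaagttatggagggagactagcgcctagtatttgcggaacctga
The Fbxo44 window held 3 GC boxes and 1 CCAAT box, that of Zfp984 held 1 GC box and 2 CCAAT boxes, of which 1 overlaps the GC box, and that of Fbxo6 held none of the 3 motifs. Of 32851 promoter windows of 300 bases in the table, 35.7% held a GC box, 37.4% a CCAAT box and 13.6% a TATA box. In all, 5 of the 7 genes had a window in the table. The windows not printed were those of Rbp7, with 1 GC box, and Angptl7, with none of the 3 motifs. Both of these genes were higher in KO. A relation between motifs and the sign of the difference was not tested.

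Rbp7 was higher in KO in each combination of sex and diet, with overlap in 3 of the 4. KO libraries had a lowest, median and highest level of 3.0, 6.82 and 14.9 CPM, against 0.307, 1.96 and 6.55 CPM in WT libraries. The difference was 1.75 ± 0.26 log2 units (KO over WT, SE), or 3.36-fold. The clean separation was in male HFD mice, where KO libraries had 6.47, 10.9 and 7.27 CPM, against 1.25, 1.39, 1.83 and 1.21 CPM in WT libraries. Male WT chow 3 (6.55 CPM) and female WT chow 1 (3.67 CPM), 2 of the 3 WT libraries with low Trim63, were the highest of their groups. Endothelial cells and adipocytes are cell types in which Rbp7 is known. Among 10 endothelial markers, 2 fell in KO (Cldn5 at -0.55 and Cdh5 at -0.33 log2 units, edgeR adjusted p 0.00923 and 0.0296) with 9 of 10 at an unadjusted p under 0.05, 3 called with DESeq2 and a median of -0.26 log2 units. Their summed level ranged from 148 to 414 CPM in KO libraries, against 261 to 460 CPM in WT libraries. Of 8 adipocyte markers, 0 were called with genotype (edgeR; 0 at an unadjusted p under 0.05, 0 with DESeq2), and their sum ranged from 323 to 955 CPM in KO libraries and from 300 to 691 CPM in WT libraries. In whole muscle, fewer cells of a type and less RNA per cell cannot be told apart, and the part of these cells in the Rbp7 difference was not tested.

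Angptl7 was higher in KO, with a wide spread in both genotypes. KO libraries had a lowest, median and highest level of 3.86, 13.9 and 43.0 CPM, against 1.72, 5.77 and 22.9 CPM in WT libraries, a difference of 0.97 ± 0.22 log2 units (SE). Both female comparisons were free of overlap. Female KO HFD libraries had 7.88, 8.79 and 9.93 CPM, against 6.11, 5.91, 5.29 and 1.72 CPM in female WT HFD libraries. Female KO chow libraries had 28.5, 22.4, 43.0 and 21.7 CPM, against 18.0, 8.9, 19.4 and 3.21 CPM in female WT chow libraries. In males the lowest KO library of each diet lay within the WT range. The host gene Mtor, encoding the growth kinase, was 0.23 ± 0.06 log2 units higher in KO (adjusted p = 0.0193, edgeR). Of 7 tendon markers 0 were called with genotype (edgeR, with 2 at an unadjusted p under 0.05 and 1 called with DESeq2). Their sums were 78.1 to 557 CPM in KO libraries and 70.5 to 560 CPM in WT libraries. Called as lower in KO were 5 of 8 fibroblast markers, among them Smoc2 at -0.34 and Col3a1 at -0.80 log2 units (edgeR adjusted p 0.00395 and 0.0208). Fibroblast sums were 174 to 1720 CPM in KO libraries and 518 to 2080 CPM in WT libraries. Of 7 macrophage markers 5 were called as lower in KO, led by Ctss at -0.45 and Csf1r at -0.44 log2 units (edgeR adjusted p 0.0192 and 0.02). Of these 5, C1qa and C1qb lie on chromosome 4, 2.57 and 2.55 Mb from Trim63. Of 6 nerve and Schwann cell markers Ncmap, itself on chromosome 4, rose by 0.93 (adjusted p = 0.0219). Of 8 muscle and 5 skin markers 0 were called (edgeR; 1 and 0 at an unadjusted p under 0.05, 0 and 0 with DESeq2). The part of these cells in the Angptl7 levels was not tested.

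Hyi, on the other side of Trim63, was higher in KO by 0.98 ± 0.20 log2 units (SE). KO libraries had a lowest, median and highest level of 1.94, 3.36 and 7.05 CPM, against 0.997, 1.44 and 4.63 CPM in WT libraries. On chow the genotypes were apart in both sexes, and on HFD they overlapped in both. Female KO chow libraries had 2.36, 2.91, 4.4 and 2.46 CPM, against 1.45, 0.997, 1.85 and 1.4 CPM in female WT chow libraries. Male KO chow libraries had 3.95, 3.28, 3.44 and 3.83 CPM, against 1.23, 1.29, 1.01 and 3.04 CPM in male WT chow libraries.

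Per kilobase of exons, the scale on which levels of different genes can be set side by side, Fbxo6 was the most abundant of the genes in both genotypes, with a median of 16.2 CPM per kb in KO libraries and 13.4 CPM per kb in WT libraries. In KO libraries Rbp7 (9.5 CPM per kb) and Angptl7 (6.42) followed, then Hyi (1.52) and Zfp992 (0.976), then Fbxo44 (0.31) and Zfp984 (0.157), and the ranges of all neighbours in this order overlapped. In WT libraries the order after Fbxo6 was Rbp7 (2.73), Angptl7 (2.68), Fbxo44 (2.06), Zfp984 (0.79), Hyi (0.652) and Zfp992 (0.0812). There the range of Fbxo6 stood clear of that of Rbp7, and that of Fbxo44 of that of Zfp984, while the other neighbours overlapped. Zfp992 was thus the least abundant in WT muscle, and Zfp984 in KO muscle.

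Chromosome 4 around Trim63 was rich in genotype differences. With the edgeR quasi-likelihood test at an adjusted p of 0.05, 615 of 14024 genes (4.39%) differed between KO and WT averaged over sex and diet, 218 higher and 397 lower in KO. On chromosome 4 these were 49 of 243 genes (20.2%) at 10 to 25 Mb from Trim63 and 44 of 246 (17.9%) within 10 Mb, against 15 of 379 (3.96%) beyond 25 Mb and 506 of 13155 (3.85%) on the other chromosomes. The 49 include the 7 genes, which were chosen by this same difference. Their ranks by its size, from 3 (Zfp992) and 4 (Fbxo44) to 32 (Fbxo6), therefore only describe them. The called genes nearest the 10 Mb limit were Lrrc38 at 9.02 Mb (-0.31 log2 units) and Akirin1 at 10.56 Mb (0.24), and those nearest 25 Mb were Faf1 at 24.35 Mb (0.21) and Pde4b at 31.71 Mb (0.24).

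**Figure D2:**
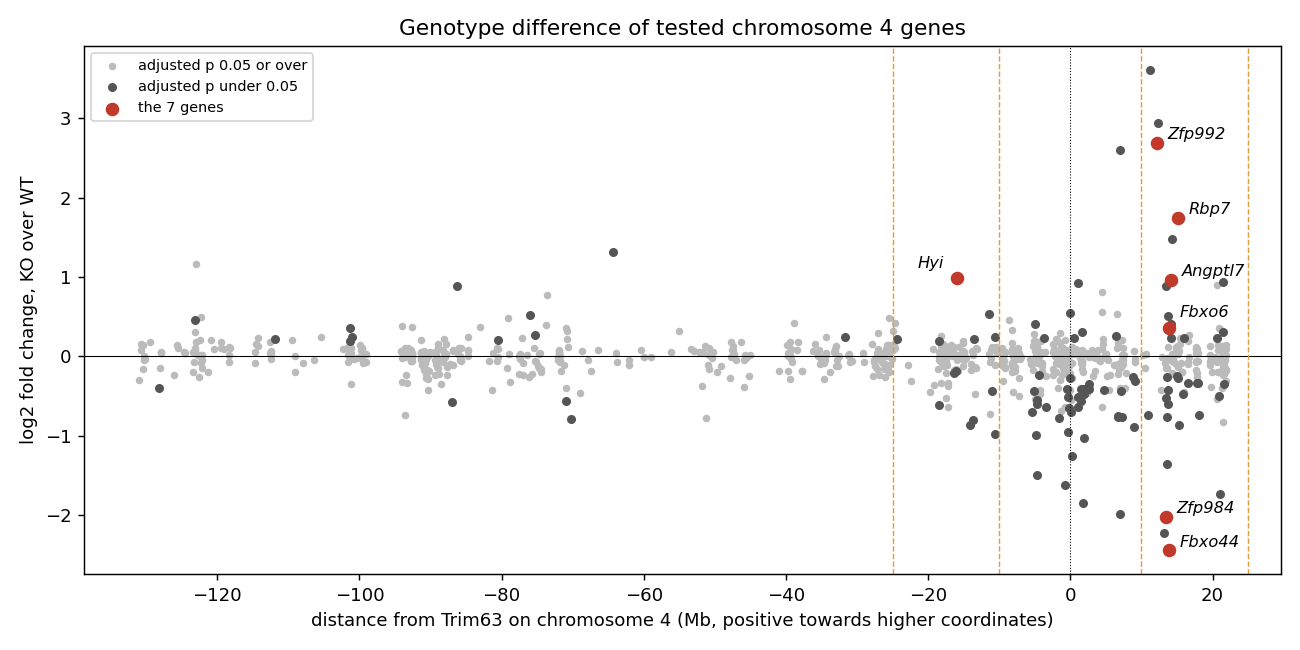
Genotype difference (log2 fold change, KO over WT) of each tested chromosome 4 gene against its distance from Trim63 in Mb, positive towards higher coordinates; the dashed lines mark 10 and 25 Mb on both sides, and Trim63 itself is left out. Zfp992 and Rbp7 lie above, and Zfp984 and Fbxo44 below, most genes at a like distance, with Fbxo6 at 0.36 near the middle.

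Genes near the members differed in both directions. Of the 13 tested genes next to or overlapping a member, 7 were called between genotypes, 6 higher in KO and 1 lower. Over all tested genes the share called was 4.39%, and at 10 to 25 Mb from Trim63 it was 20.2%. Zfp990 averaged 0.629 ± 0.217 CPM in KO and 0.0798 ± 0.176 CPM in WT libraries (SD, n = 14 and 16), and Zfp993 averaged 0.837 ± 0.282 CPM in KO and 0.206 ± 0.271 CPM in WT libraries. Both are zinc finger genes that flank Zfp992, and both were higher in KO, by 3.61 ± 0.52 and 2.94 ± 0.42 log2 units (edgeR adjusted p 6.92e-05 and 4.96e-05). Their WT means lay under or within the 0.201 to 0.321 CPM that 3 counts are worth, so these differences rest on few reads. Beside Fbxo6 and Fbxo44, Mad2l2, encoding a subunit of DNA polymerase zeta, was higher by 0.51 ± 0.08 log2 units (edgeR adjusted p = 7.91e-05). Ube4b, a ubiquitin chain elongation factor beside Rbp7, was lower at -0.24 ± 0.05 log2 units (adjusted p = 0.00584). On the same side of Trim63, Rps19-ps3, a pseudogene of a ribosomal protein gene whose reads may be shared with its parent, rose by 0.89 ± 0.20, and Fv1, a retrovirus restriction gene, and Pik3cd, a PI3-kinase subunit, were at -1.36 ± 0.15 and -0.87 ± 0.11 log2 units (edgeR adjusted p 0.0101, 5.5e-07 and 7.75e-06). On the lower-coordinate side, where Hyi lies, Ppt1, a lysosomal thioesterase, rose by 0.53 ± 0.06 and Ndufs5, a complex I subunit, was at -0.98 ± 0.09 log2 units (edgeR adjusted p 2.75e-06 and 1.05e-08).

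Relatives of the genes differed with genotype in some families and were not called in others. Of 15 tested genes in a list of zinc finger genes and their corepressors, 2 were higher in KO, Zfp990 and Zfp993, and 3 lower, Zfp46 (-1.03), Zfp933 (-0.52) and Zfp982 (-2.22 log2 units; edgeR adjusted p 2.32e-09, 0.0018 and 0.00462). DESeq2 called 3 of the 13 genes of this list to which it gave an adjusted p. Its median was 0.01, against -0.01 over all genes. These 5 lie on chromosome 4, but so do 8 of the 10 tested zinc finger genes of the list. The list was drawn up for that chromosome, so their place there is no result. The corepressor Trim28 on chromosome 7 was not among the called. Of 4 tested F-box relatives and SCF core genes 0 were called (edgeR; 0 at an unadjusted p under 0.05, 0 with DESeq2). Likewise 0 of 3 fatty acid binding relatives (0 at an unadjusted p under 0.05, 0 with DESeq2) and 0 of 5 genes of glyoxylate metabolism (0 at an unadjusted p under 0.05, 0 with DESeq2) were called with edgeR. Of 13 retinoid genes, Aldh1a1, an enzyme that makes retinoic acid, was higher by 0.36 ± 0.08 and Rara, a retinoic acid receptor, lower at -0.42 ± 0.10 log2 units (adjusted p 0.0103 and 0.011). Of 8 angiopoietin family genes, Angptl2 at -0.34 ± 0.08 and Angptl1 at -0.64 ± 0.15 log2 units were lower (adjusted p 0.00908 and 0.0114), opposite in sign to Angptl7. The medians of these lists ran from -0.30 to 0.07.

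The other comparisons did not choose the genes and were tested, except where earlier values had singled out a gene, as for Fbxo6 between the sexes and Angptl7 between diets and sexes. Averaged over genotype and sex, diet changed 116 of 14024 genes (0.827%) and none of the 7 (edgeR; adjusted p 0.241 to 0.841, unadjusted p under 0.05 for 2, and 0 of the 3 to which DESeq2 gave an adjusted p). The largest diet difference was that of Zfp984, -0.54 ± 0.25 log2 units (HFD minus chow, SE). The genotype difference on HFD was set against that on chow, where 15 of all genes were called (0.107%) and 0 of the 7 (edgeR; adjusted p 0.663 to 0.984, 0 at an unadjusted p under 0.05, 0 of the 4 to which DESeq2 gave an adjusted p). Fbxo6 had the narrowest error, -0.14 ± 0.12 log2 units, and for the other 6 the SE was 0.40 log2 units or more, as in Fbxo44 at -1.09 ± 0.60.

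Sex changed 4317 genes (30.8%). Fbxo6 was at -0.45 ± 0.06 log2 units (female minus male), given as a description because an earlier result of these data had singled out its male values. Its mean was 30.6 CPM in female KO HFD libraries against 45.3 CPM in male KO HFD libraries, and 29.3 CPM in female KO chow libraries against 44.4 CPM in male KO chow libraries. In WT it was 32.5 CPM in female HFD libraries against 30.2 CPM in male HFD libraries, and 25.4 CPM in female chow libraries against 31.0 CPM in male chow libraries, so that the sexes differed most in KO. Of the other 6 genes 0 were called (edgeR; 2 at an unadjusted p under 0.05, 0 with DESeq2). Fbxo44 was not called at -0.69 ± 0.30 log2 units (adjusted p = 0.0816), but without female KO chow 2, the KO library with high Fbxo44, it was at -1.21 with an adjusted p of 4.14e-05. Zfp992 was not called at 0.80 ± 0.35 log2 units (adjusted p = 0.0847), and without male WT chow 3 it was at 1.05 with an adjusted p of 0.0264. For the other 4 genes the adjusted p was at least 0.346.

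The genotype difference was compared between the sexes, where 4 of all genes were called (0.0285%). The genotype difference of Fbxo6 in females minus that in males was -0.59 ± 0.12 log2 units, again a description. Of the other 6 genes 0 were called with edgeR (adjusted p 0.266 to 1, 1 of 6 at an unadjusted p under 0.05, 0 of 6 with DESeq2). Zfp992 had the widest gap, with a difference of 4.19 ± 0.77 in male HFD and 3.23 ± 0.64 in male chow mice against 2.08 ± 0.60 in female chow and 1.26 ± 0.56 log2 units in female HFD mice. The interaction was -2.04 ± 0.70 log2 units.

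The diet difference was then compared between the sexes, a comparison added after the Angptl7 values were seen. It called 6340 of all genes (45.2%) and, beside Angptl7, 3 of the other 6 (3 with DESeq2), a share near that of all genes. The Angptl7 value is a description, since its levels prompted the comparison. Angptl7 was low on HFD and high on chow in females, and the reverse in males. On HFD, female KO and WT libraries had medians of 8.79 and 5.60 CPM, and on chow 25.5 and 13.4 CPM. Male KO and WT libraries had medians of 24.1 and 14.5 CPM on HFD, and 8.11 and 4.57 CPM on chow. The interaction was -3.03 ± 0.44 log2 units (HFD minus chow in females minus that in males), and the medians of both genotypes followed it. Of 7 tendon markers 6 were called with a negative interaction (edgeR), among them Tnmd at -2.15 ± 0.38, and the list median was -2.15. Called as negative were also 5 of 8 fibroblast, 6 of 7 macrophage and 5 of 8 adipocyte markers, while 1 adipocyte marker was called as positive. Their medians were -0.95, -1.07 and -1.31, against -0.033 over all genes. These counts stand beside the 45.2% of all genes called in either direction. Summed tendon markers ran from 70.5 to 293 CPM in female HFD, 270 to 560 CPM in female chow, 146 to 262 CPM in male HFD and 78.1 to 203 CPM in male chow libraries. Their part in the Angptl7 difference was not tested.

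Rbp7, Fbxo6 and Hyi had interactions of the other sign. Rbp7 was at 2.12 ± 0.53 log2 units (adjusted p = 0.00264). Female KO HFD libraries had 3.9, 14.9 and 7.18 CPM and female KO chow libraries 6.23, 3.0, 4.96 and 4.49 CPM, while female WT HFD libraries had 1.63, 5.98, 3.97 and 4.7 CPM and female WT chow libraries 3.67, 0.307, 0.962 and 0.601 CPM. Male KO HFD libraries had 6.47, 10.9 and 7.27 CPM and male KO chow libraries 4.65, 8.95, 12.6 and 11.1 CPM. The medians of both female genotypes were higher on HFD, and those of both male genotypes were lower. Fbxo6 was at 0.40 ± 0.12 and Hyi at 1.05 ± 0.40 log2 units (adjusted p 0.0068 and 0.0332); Hyi was no longer called when any of 4 libraries was left out (female KO HFD 2, adjusted p = 0.09; female WT HFD 3, 0.0661; male KO HFD 2, 0.0604; male WT chow 4, 0.0827). Zfp992 was not called, at 1.38 ± 0.71 log2 units (adjusted p = 0.115), and was at 2.15 with an adjusted p of 0.00921 without female WT chow 1. Of 8 muscle markers 6 were called with a positive interaction (edgeR), such as Acta1 at 0.92 ± 0.11. Of 10 endothelial markers 2 were called as positive, Cldn5 and Egfl7 (1.56 ± 0.24 and 0.61 ± 0.18). Another 3 were called as negative, among them Vwf and Tek (-0.92 ± 0.24 and -0.59 ± 0.20).

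**Figure D3:**
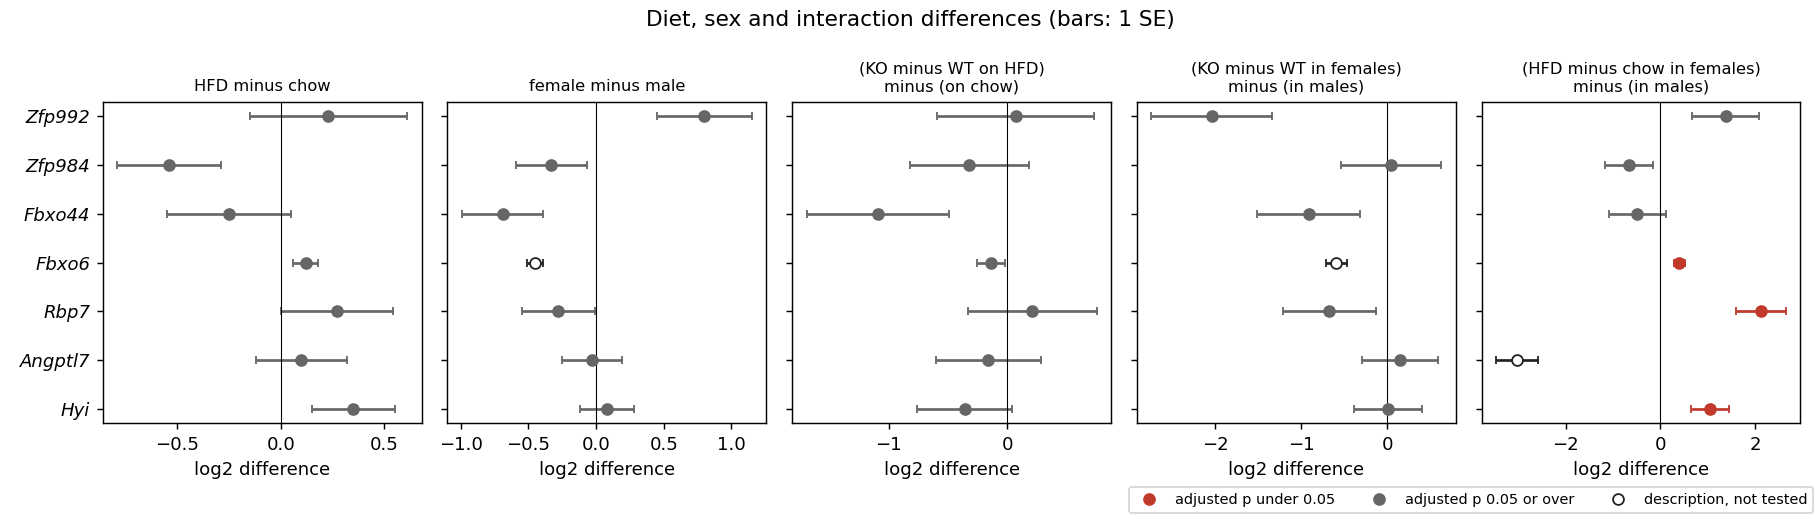
Log2 difference (point) and 1 SE (bar) of each gene in the 5 comparisons that did not choose the genes, each panel with its own axis; red marks an adjusted p under 0.05, and open points are values given as a description with no test. Fbxo6, Rbp7 and Hyi are red where the diet difference is compared between the sexes, and Angptl7 is open there at -3.03.

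Across libraries the genes did not follow 1 common course. Over the 30 grouped libraries, which share the genotype contrast, log2 levels of Zfp984 and Fbxo44 had a Pearson r of 0.85 and 0.66 as deviations from group means, where it was 0.76 in KO and 0.23 in WT libraries. Zfp992 and Rbp7 had r of 0.80 and 0.63. The neighbours Fbxo6 and Fbxo44 had r of -0.20 on both measures, and Angptl7 and Hyi 0.09 and -0.10. These are descriptions, with no p.

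**Figure D4:**
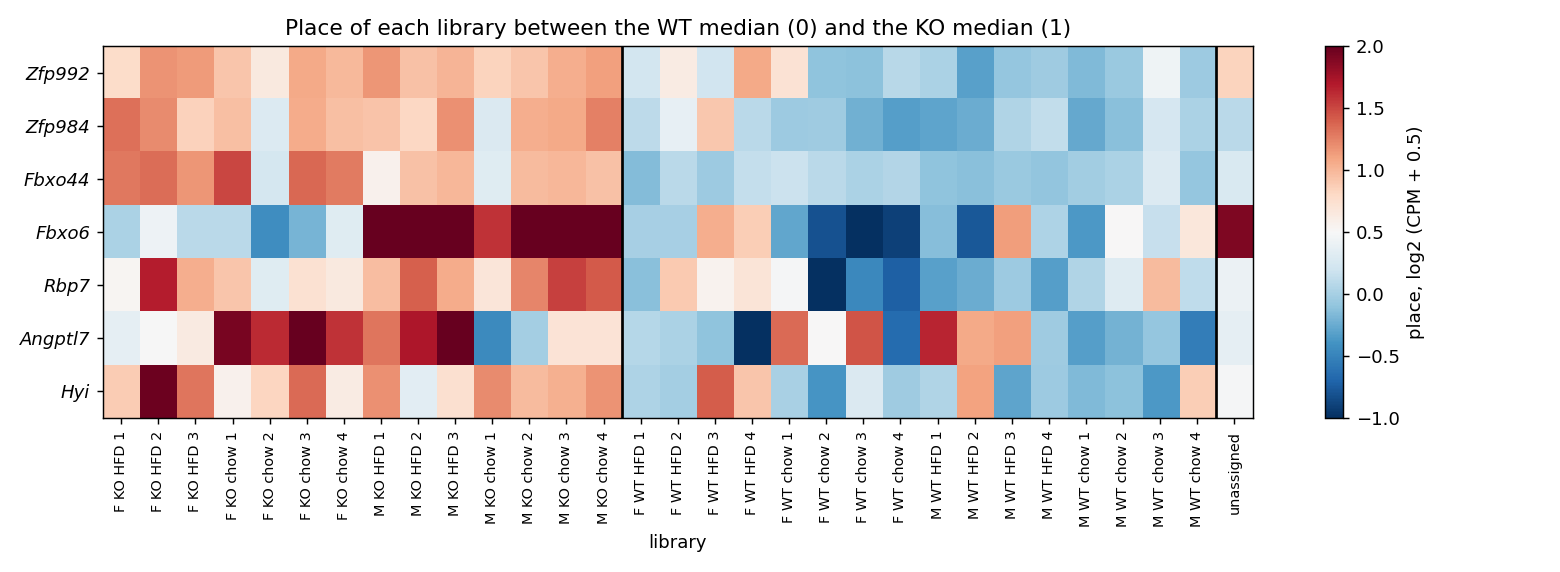
Place of every library (columns, 14 KO, then 16 WT, then the library with no group) between the WT median (0, light blue) and the KO median (1, light red) for each gene (rows), on the log2 (CPM + 0.5) scale; colours end at -1 and 2. Female KO chow 2 is blue for Zfp984, Fbxo44, Fbxo6 and Rbp7, and female WT HFD 4 is red for Zfp992.

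Counted over the 7 genes, 4 of 14 KO libraries lay nearer the KO median for all 7, 6 for 6 of them, 2 for 5, and male KO chow 1 and female KO chow 2 for only 4 and 3. Of 16 WT libraries, 4 lay nearer the WT median for all 7, 5 for 6 and 5 for 5, and female WT HFD 3 and female WT HFD 4 for 3. Female WT HFD 4 had Trim63 at 119 CPM and an own title of another group; female WT HFD 3 had Trim63 at 242 CPM. The medians were set by the same libraries, so the counts only describe how mixed a library was.

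The genes most like each member were sought among tested genes whose mean log2 CPM was 0 or more, by Pearson r over the 30 libraries. These libraries share the genotype contrast that chose the members, so genes that differ with genotype rank high. As deviations from group means, r of the genes named here ran from 0.28 (Fbxo44 and Pafah2) to 0.82 (Fbxo6 and Zfp358). Of all 14024 tested genes, 13155 lay on chromosomes other than 4. Zfp992 was most like Eno1b (r = 0.92), Gm10036 (0.89) and Gm4735 (0.83), and Rbp7 like Gm5801 (0.88), Gm4735 (0.85) and Eno1b (0.82), none of them on chromosome 4; of the 20 genes most like each, 5 for Zfp992 and 8 for Rbp7 lay there. The transcript of Eno1b, an enolase gene, is 99.5% identical over 1652 bases to Eno1 on chromosome 4 and 99.8% identical over 1302 bases to Gm4735. Eno1 was at -0.48 ± 0.08 and Gm4735 at 1.17 ± 0.14 log2 units (KO over WT, SE). Hyi was most like BC002163 (r = 0.84), P3h1 (0.70) and Ubb (0.69), with 4 of its 20 on chromosome 4. BC002163 lies on chromosome 16, and its transcript is 99.4% identical over 319 bases to Ndufs5 of chromosome 4, the complex I gene that was lower in KO. For Zfp984, Fbxo44 (0.85), Fv1 (0.81) and Pik3cd (0.81) came first, and for Fbxo44, Zfp984 (0.85), Agtrap (0.85) and Pafah2 (0.84), all on chromosome 4; among the 20 genes most like them, 18 and 16 lay there. Fbxo6 was most like Pabpc4 (0.92), a poly(A)-binding protein gene 11.02 Mb from Trim63, Zfp358 (0.90) and Ybx3 (0.90), with 2 of its 20 on chromosome 4. Angptl7 was most like Fmo2, Prg4 and Nfe2l2 (0.75 each), with 0 of its 20 there; Prg4 encodes lubricin, the lubricant of joints and tendons.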

How the data were processed

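RNA of 31 gastrocnemius samples was enriched for poly(A), made into libraries with a stranded Illumina kit and sequenced as read pairs of 150 bases, per the labels' protocols. The authors deposited whole-number counts of reads per gene for each library, made with featureCounts on build mm10 per the submitters' processing notes, which also name bcl2fastq. Which aligner, annotation release and strand option they chose is not given in the sources used here. The deposited values are whole numbers with a different total in each library.

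Genes were named from GENCODE M21, which held 37693 of 39017 gene IDs. The 30 grouped libraries were fitted together with edgeR 4.0.16 (R 4.3.3): TMM scaling, the filterByExpr filter with a minimum count of 10, robust dispersions, 1 coefficient for each of 8 groups and the quasi-likelihood test. It kept 14024 genes, and p-values were adjusted over them by the Benjamini-Hochberg method, with 0.05 as the threshold for a call. Printed CPM values use unscaled library totals. SE is the log2 difference divided by the root of the F statistic. Genes at 0 in a library may still reach the CPM of 3 counts, and these limits cover counting error only. The common dispersion, 0.0202, corresponds to 14.2% variation between animals. Alternatives were DESeq2 1.42.0, median-ratio scaling, no filter, the replicate number as a block, other groupings and each library left out.

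Each library was grouped by the title that carries its described animal; 1 library fitted no title and was left out of the tests. Near copies were sought with blastn 2.17.0 among GENCODE M21 transcripts, and promoter sequences are from RefSeq (GRCm38.p6). The 7 genes, the lists and the markers were chosen with earlier results of these data known. Other genes were named by a rule: the neighbours, the 3 most alike by Pearson r, the 3 largest changes in each direction at 10 to 25 Mb whose mean log2 CPM was 0 or more, the called genes nearest both limits, and up to 4 called genes of each list. A few further genes were named beside these after their values were seen, among them Zfp982, Zfp991 and Eno1. Some neighbouring genes that the rule names are not reported here.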

Additional observations from a re-analysis of the deposited data

Results flagged for a closer look

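In groups of 4, a library was singled out when its distance from the nearest other exceeded Dixon's limit, as in 8 of 42 combinations of gene and group. The limit would flag about 1 in 20 if combinations were independent and values normally distributed. The combinations share libraries and several genes have few counts, so the 8 cannot be set against that share. Zfp984 was far above the other 3 libraries of its group in male KO chow 1 (1.58 CPM) and female KO chow 2 (1.54 CPM), and so was Fbxo44 in the same libraries, with 3.6 CPM in male KO chow 1 and 4.13 CPM in female KO chow 2. Zfp992 stood out in male WT chow 3 (1.32 CPM) and female WT chow 1 (2.52 CPM), 2 of the 3 WT libraries with low Trim63. Hyi stood out in male WT chow 4 (3.04 CPM) and male WT HFD 2 (3.64 CPM), whose Trim63 was at 251 and 225 CPM.

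The diet difference in females minus that in males was past the threshold of the edgeR quasi-likelihood test for Fbxo6 (0.4 log2 units), Rbp7 (2.12) and Hyi (1.05), among 45.2% of all genes. That of Angptl7 (-3.03) is a description, since its levels prompted the comparison.

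The library with no group has an own title of the male KO HFD group and Trim63 at 107 CPM. Its Zfp992 (3.15 CPM) and Fbxo6 (42.2 CPM) lay above every male WT library. Among WT libraries of both sexes the highest had 5.08 CPM of Zfp992 and 36.5 CPM of Fbxo6. Its Fbxo44 (3.91 CPM) lay within the range of WT libraries (3.82 to 7.96 CPM) and also of KO libraries (0.168 to 4.13 CPM). Its Zfp984 (2.0 CPM) lay within the WT range and above the highest KO library (1.58 CPM).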

How the results depend on the processing

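The genotype differences that chose the 7 genes kept their sign in each alternative run, running with 1 library left out from 2.6 to 3.07 for Zfp992 and from -2.92 to -2.34 log2 units for Fbxo44. Without the 3 WT libraries of low Trim63, which include the WT library with the highest Zfp992, Zfp992 was at 3.53 ± 0.22 log2 units. With all 31 libraries grouped by their own titles they were closer to 0 for Zfp984 (-1.01), Fbxo44 (-1.41) and Angptl7 (0.26); the cause was not tested. The diet-by-sex call of Rbp7 held in every alternative. That of Hyi was lost without the filter (adjusted p = 0.0649), with only the libraries whose title and animal give 1 group (0.108) and by own titles (0.0993), and that of Fbxo6 by own titles (0.122). The sex difference of Fbxo44 was called with the ungrouped animal added (-0.83, adjusted p = 0.0363).

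Counts of called genes moved more. The genotype average gave 997 with the replicate block, 128 by own titles, 953 without the 3 WT libraries of low Trim63, and 390 to 1203 with 1 library left out, outside 1.5 times the count without male KO HFD 2 (390), male WT chow 4 (924), male KO chow 4 (1020) and female WT HFD 4 (1203). The diet average gave 410 with DESeq2, 35 without the filter, 30 with title and animal of the same group, 215 with the ungrouped animal and 23 to 257 with 1 library left out. The genotype-by-diet comparison gave 60 with DESeq2, 6 without the filter, 4 with title and animal of the same group and 1 to 45 with 1 left out. The genotype-by-sex comparison gave 76 with DESeq2, 12 with the replicate block and 2 to 217 with 1 left out. By own titles the last 3 comparisons gave 0 with edgeR, and 1502, 796 and 1205 genes at an unadjusted p under 0.05; DESeq2 was not run on that grouping.

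Differences that changed sign were not called in either setting. With the replicate block it was Hyi, genotype by sex (-0.01). Title and animal of the same group turned Angptl7 for diet (-0.01) and sex (0.2). Own titles turned Zfp992 (-0.02), Fbxo44 (0.12) and Rbp7 (-0.06) for diet, Angptl7 for sex (0.38), Zfp984 (0.23) and Fbxo6 (0.1) for genotype by diet, and Fbxo44 (0.4), Angptl7 (-0.71) and Hyi (-0.2) for genotype by sex. The added animal turned Angptl7 for sex (0.01) and Zfp984 for genotype by diet (0.03) and by sex (-0.33). Leaving out the WT libraries of low Trim63 turned Hyi for sex (-0.01) and Zfp992 (-0.78) and Rbp7 (-0.56) for genotype by diet. With 1 library left out, values ran from -0.37 to 0.25 for Fbxo44 with diet, -0.1 to 0.03 for Angptl7 and -0.03 to 0.21 for Hyi with sex, -0.69 to 0.47 for Zfp992, -0.65 to 0.12 for Zfp984 and -0.37 to 0.39 for Rbp7 with genotype by diet, -0.29 to 0.49 for Zfp984, -0.02 to 0.29 for Angptl7 and -0.26 to 0.2 for Hyi with genotype by sex, and -0.83 to 0.53 for Fbxo44 with diet by sex.

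The main fit did not pair libraries by replicate number. Deviations of same-numbered libraries of different groups had a median r of 0.03 over 99 pairs, of which 35 were over 0.1. For differently numbered libraries it was -0.01 over 294 pairs, of which 74 were over 0.1. With the replicate block, diet called 141, sex 4455, genotype by diet 22 and diet by sex 6514 genes. Limits are the low depth of Zfp992, Zfp984, Fbxo44, Rbp7 and Hyi, with median counts of 31, 19, 51, 48 and 33 over the grouped libraries. Several libraries had few counts, such as 0 to 5 of Zfp992 in male WT HFD and 2 to 7 of Zfp984 in female KO HFD libraries. Further limits are the 4 libraries whose own title gives another group, and groups of 3 or 4.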
